A study of Arabidopsis thaliana with 12 samples.

Results

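A set of 53 transposable element (TE) genes was silent in wild-type mature leaves, carried reads in every *ddcc* mature-leaf library and stayed low or unlisted in *met1-3* young shoots. They were picked out of 1764 listed TE genes, which are the identifiers that carry a transcript suffix among 24775 identifiers in the 9 files used. The deposited unit is log2 of the normalized read count plus 1, where a value of 2 stands for 3 normalized reads and a value of 3 for 7. A member had a mean below 2 over the 3 Col-0 libraries, a lowest value above 3 over the 3 *ddcc* libraries, and a lowest value of at most 3 over the 3 *met1-3* libraries or no entry there. The set was chosen by these expression values, which are therefore given below as a description with no test. Col-0 and *ddcc* share 1 table and *met1-3* was normalized apart, so *met1-3* values were read as on or off only.

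RNA-seq was done on *Arabidopsis thaliana* plants of the Columbia background, with 3 libraries per group. Col-0 is the wild type, *ddcc* is the quadruple mutant *drm1 drm2 cmt2 cmt3*, and *met1-3* carries a mutation in *MET1*. The Col-0 and *ddcc* libraries came from mature leaves of plants aged 5 weeks and the *met1-3* libraries from young shoots of plants aged 2 weeks, so the genotype of *met1-3* and its age and tissue cannot be told apart. The methods name the aerial part as the material, with the inflorescence taken off at 5 weeks. The labels do not name the alleles combined in *ddcc*. In bulk tissue, a member read in fewer cells and a member with less RNA per cell cannot be told apart.

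Plants methylate cytosines in 3 sequence contexts: CG, CHG and CHH, where H is any base but G. MET1 copies CG methylation after replication, CMT3 and CMT2 maintain CHG and CHH methylation at nucleosomes that carry H3K9me2, and DRM1 and DRM2 add methylation guided by small RNAs. Long terminal repeat (LTR) retrotransposons of the Copia and Gypsy types start transcription in a repeat that flanks them on both sides, and reverse transcription of their RNA is primed by a host tRNA that pairs just inside the first repeat. LINE elements also move through RNA but carry no such repeats, while MuDR, hAT and En-Spm elements move as DNA.

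The first repeat and the tRNA site are shown for some members of the main LTR groups, since the repeats and the site were not used by the rule. Direct repeats of at least 100 bases and 80% identity were found on both sides of 30 of the 53 members. In 19 of these the bases around the end of the first repeat held the 12 letters TGGTATCAGAGC, which pair with the 3′ end of tRNA-Met, and in 1 member they held TGGCGCCGTTGC, which pairs with tRNA-Asp. Only the strand of the TE gene was searched, from 15 bases before the end of the repeat to 30 bases after it. The lines below give 24 bases before the site, the site in capitals and 6 bases after it, 5′ to 3′ on the strand of the TE gene, in TAIR10.1. They cover chr5:9949649-9949690 on the plus strand for AT5G27925, chr3:18791481-18791522 on the plus strand for AT3G50625, chr5:10765375-10765416 on the plus strand for AT5G28715 and chr2:4520787-4520828 on the minus strand for AT2G11340.
AT5G27925 (Copia): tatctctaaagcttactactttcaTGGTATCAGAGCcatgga
AT3G50625 (Copia): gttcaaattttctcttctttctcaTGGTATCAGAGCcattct
AT5G28715 (Gypsy): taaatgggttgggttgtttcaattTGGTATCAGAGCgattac
AT2G11340 (Gypsy): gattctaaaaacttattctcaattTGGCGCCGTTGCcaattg

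The same 12 letters followed the repeat in both Copia copies and in the first Gypsy copy, although the bases before them differ. The last 250 bases of the first repeat of AT5G27925, the member with the most reads, and of AT5G28715, one of a family of Gypsy copies, are printed next with CG sites in capitals. They lie at chr5:9949425-9949674 and chr5:10765151-10765400 on the plus strand, and the last 2 bases of each alignment are also the first 2 bases of the tRNA site.
AT5G27925 (Copia): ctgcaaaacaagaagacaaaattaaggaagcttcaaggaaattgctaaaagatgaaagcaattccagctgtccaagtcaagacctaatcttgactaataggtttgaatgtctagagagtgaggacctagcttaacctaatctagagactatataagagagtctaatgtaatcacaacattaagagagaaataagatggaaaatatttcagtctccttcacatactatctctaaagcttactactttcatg
AT5G28715 (Gypsy): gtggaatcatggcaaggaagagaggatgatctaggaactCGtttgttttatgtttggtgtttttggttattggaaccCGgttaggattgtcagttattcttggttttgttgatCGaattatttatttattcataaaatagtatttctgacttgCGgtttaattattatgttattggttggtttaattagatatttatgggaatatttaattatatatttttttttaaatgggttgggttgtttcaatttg

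In this stretch AT5G27925 had 0 CG sites and 4 CHG sites, and AT5G28715 had 4 CG sites and 3 CHG sites. The matching 250 bases of the Copia member AT3G50625, not printed, had 3 CG sites and 6 CHG sites. Over the whole first repeat AT5G27925 had 3 CG sites in 471 bases, and the Copia member AT2G13930 had 18 in 407. CG counts thus differ among Copia repeats, and the printed stretches are no comparison of Copia with Gypsy.

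Between 10105057 and 13989374 reads were counted per library. Plastid genes took 57.8% to 59.6% of them in Col-0, 64.4% to 65.8% in *ddcc* and 56.7% to 58.3% in *met1-3*. The summed level of 5 leaf markers (RBCS1A, RBCS3B, LHCB1.3, LHCB2.1 and RCA) was 38158 to 47054 normalized reads in Col-0, 98546 to 107367 in *ddcc* and 125464 to 147626 in *met1-3*, and 4 of the 5 were called higher in *ddcc*. Flower markers (AG, AP3, PI, SEP3 and AP1) summed to 17.8 to 34.2 normalized reads in Col-0, 22.1 to 25.2 in *ddcc* and 8.70 to 21.7 in *met1-3*, with AP3 and AP1 at 0 in every *met1-3* library. The 2 pollen markers VGD1 and VGDH1 summed to 3.48 to 6.29 in Col-0 and 0 to 3.92 in *ddcc*, and none of the 3 seed markers (CRA1, CRC and OLEO1) was listed. The part of these differences in the results below was not tested. Of the mutated genes, DRM2 averaged 59.8 normalized reads in the wild type and 21.6 in *ddcc*, CMT3 had 45.9 and 35.7, CMT2 had 122 and 182, and DRM1 was near 0 in both, so RNA of some mutated genes was still counted. Of 17005 tested identifiers, 861 differed between *ddcc* and Col-0 (limma, adjusted p under 0.01 and absolute log2 fold change over 1), 663 higher and 198 lower in *ddcc*. Scaling by total counts moved the median log2 difference of all identifiers by -0.32 and turned the split to 440 higher and 787 lower.

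The step from TE gene to member ran as follows. Of 1041 TE genes in the table of Col-0 and *ddcc*, 904 were below the Col-0 limit, and 124 of those were above the *ddcc* limit in every library. Members made up 53 of the 124 (42.7%), and the other 71 were also on in *met1-3*. A further 659 TE genes were on only in *met1-3*, a set that also admits TE genes with no entry for Col-0 and *ddcc*. Of the members, 33 were listed in the *met1-3* files and 20 were not, and what an absent entry means is not given in the sources used here. Among identifiers without the suffix, 43 of 3712 with a Col-0 mean under the limit met all limits of the rule. All 53 members were matched to the RefSeq annotation of TAIR10.1, which calls each of them a pseudogene. It places 11 on chromosome 1, 16 on chromosome 2, 13 on chromosome 3, 3 on chromosome 4 and 10 on chromosome 5, with 27 on the plus strand and 26 on the minus strand. A single exon was annotated for 48 members.

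In Col-0 the members were close to empty. No read was counted in any of the 3 libraries for 27 members, 19 had 1 to 3 reads in total and 7 had more, with 9 as the highest total. Summed over the members, Col-0 had 21.5 ± 7.86 normalized reads (SD, n = 3) and *ddcc* had 3458 ± 61.9, a ratio of 161 ± 59.1 that rests on 71 Col-0 reads. As a share of all counted reads this is 1.91 ± 0.679 reads per 1000000 in Col-0 and 247 ± 13.8 in *ddcc*. Members held 14.2% ± 0.118 of the reads on TE genes in *ddcc*. In *met1-3* the listed members summed to 160 ± 13.03 normalized reads on that table's own scale, or 12.7 ± 2.22 per 1000000 counted.

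Each member had all 3 *ddcc* libraries above all 3 Col-0 libraries, which the rule makes likely and which held for 18.6% of the 23151 identifiers listed in that table. Of the members, 44 passed the filter on low values and 9 did not, and all 44 were called higher in *ddcc* and none lower, where 3.9% of all tested identifiers were called higher and 1.16% lower. A member near 0 in Col-0 passed this filter only through *ddcc*, so nothing is read from that count. The fitted log2 difference ran from 3.65 to 7.92 over the tested members with a median of 5.32, and the median over all tested identifiers was -0.03.

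**Figure D1:**
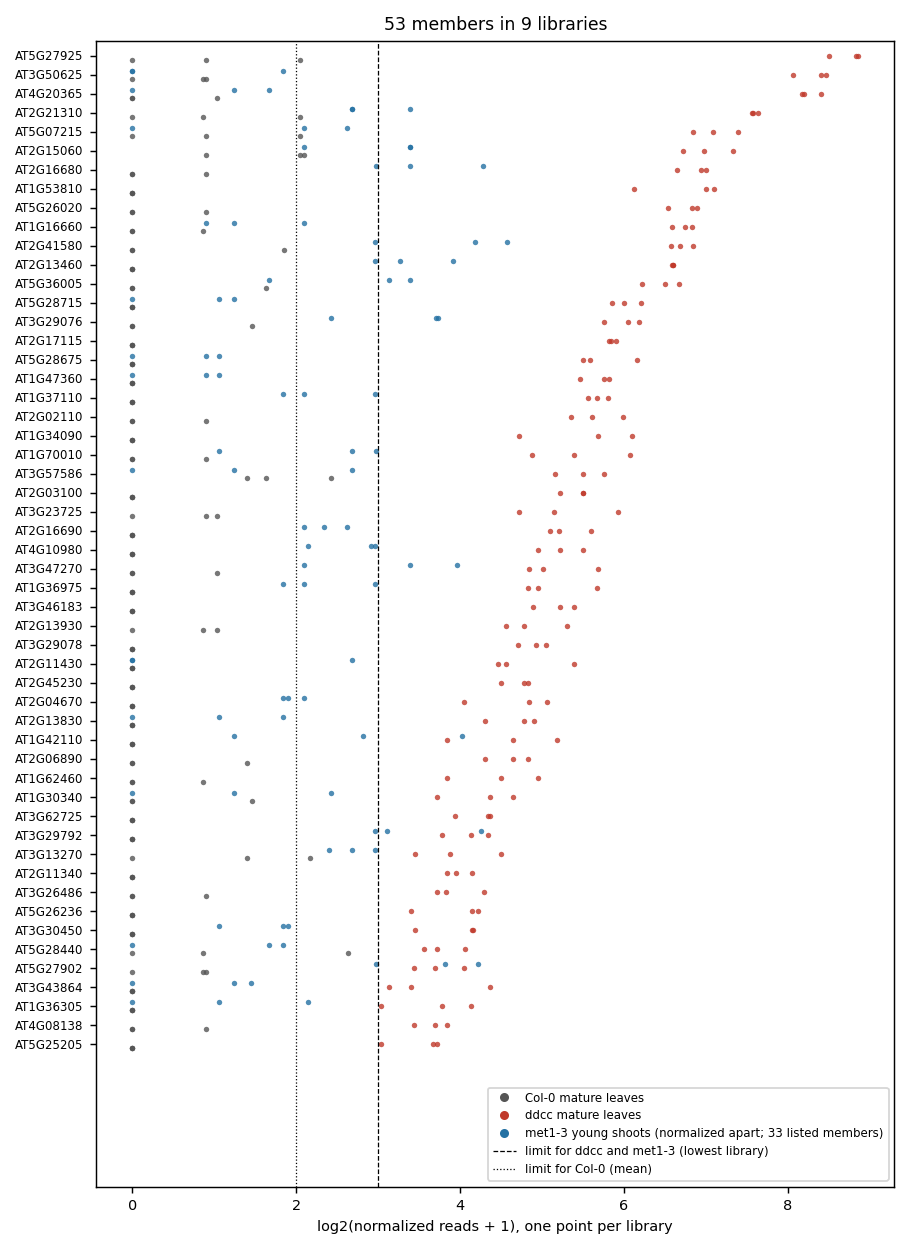
Values of the 53 members, ordered by their mean in *ddcc*, with log2 of normalized reads plus 1 on the horizontal axis and 1 point per library for Col-0 mature leaves (grey), *ddcc* mature leaves (red) and *met1-3* young shoots (blue, 33 listed members, normalized apart). The *ddcc* points of each member lie to the right of its Col-0 points, while the blue points of 3 members reach into the *ddcc* range.

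The level was uneven among members. Mean normalized reads in *ddcc* ran from 10.4 to 426 with a median of 36.8. The member with the most reads held 12.3% of the summed *ddcc* level, the top 3 held 30.4% and the top 10 held 56.4%. Per kb of exon, the mean ran from 2.08 to 148 normalized reads with a median of 11.5. No *ddcc* library was high throughout, since replicate 1 was the highest of the 3 for 19 members, replicate 2 for 16 and replicate 3 for 18.

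AT5G26020 lies on a hAT element (chr5:9093595-9094877, minus strand, 6 exons) and had the highest level per length. It had 118, 113 and 91.8 normalized reads in the *ddcc* libraries, which is 148 ± 18.8 per kb of exon (SD, n = 3), and 0, 0.869 and 0 in Col-0. The groups did not overlap, which the rule makes likely, and the ratio from 296 reads against 1 was 357. Its 95% exact interval for counting error was 63.6 to 14162. Such intervals, here and for other members, describe values that the rule used and are no test. It was not listed in *met1-3*.

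AT5G27925, a Copia element (chr5:9949686-9954107, plus strand), had the most reads of all members. Its *ddcc* libraries had 361, 463 and 453 normalized reads, or 96.3 ± 12.8 per kb. Its Col-0 libraries had 3.14, 0.869 and 0. All *ddcc* values were above all Col-0 values, which the rule makes likely, and the ratio was 357 with an interval of 139 to 1314. Its longest open reading frame spanned 971 codons, and its repeats were 99.2% identical.

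AT2G21310, AT3G50625 and AT4G20365, also Copia elements, came next among the LTR members. AT2G21310 (chr2:9122622-9125212, plus strand) had 198, 188 and 190 normalized reads in *ddcc* against 3.14, 0 and 0.815 in Col-0. AT3G50625 (chr3:18791543-18796042, plus strand) had 266, 337 and 353 against 0, 0.869 and 0.815. AT4G20365 (chr4:10993391-10998715, plus strand) had 339, 289 and 293 against 1.05, 0 and 0. In each of these genes the lowest *ddcc* library was above the highest Col-0 library, which the rule makes likely. Per kb of exon they reached 74.1 ± 1.99, 70.8 ± 10.2 and 57.7 ± 5.26 normalized reads, so the first and second of these neighbours in the order did not differ beyond their spread. Their *met1-3* values were low, at 5.44, 5.44 and 9.45 normalized reads for AT2G21310, 0, 0 and 2.58 for AT3G50625, and 2.17, 1.36 and 0 for AT4G20365. AT3G50625 and AT4G20365 belong with AT5G27925 to a group of 6 related Copia members, and both hold long open reading frames of 1453 and 1513 codons.

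Members on LINE elements followed. AT2G16690 (chr2:7236878-7237600) and AT2G16680 (chr2:7232292-7236283) lie 594 bases apart on the minus strand of the same annotated LINE element and may be pieces of 1 transcript, which was not tested. AT2G16690 had 36.0, 33.3 and 47.5 normalized reads in *ddcc* and 0 reads in Col-0, which makes it at least 14.3-fold higher against a floor of 3 reads per library. AT2G16680 had 99.5, 127 and 122 against 0, 0.869 and 0. Per kb of exon the shorter AT2G16690 was higher (53.9 ± 10.5) than AT2G16680 (29.1 ± 3.68), with no overlap of their libraries. AT2G41580 (chr2:17339804-17343088, plus strand), the third LINE member of the leading 12, had 102, 114 and 94.0 against 0, 2.61 and 0, and 31.4 ± 3.01 per kb. AT2G16680 and AT2G41580 were not empty in *met1-3*, with 6.87 to 18.5 and 6.80 to 22.8 normalized reads.

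The rest of the leading 12 were of several kinds. AT2G15060 (chr2:6524754-6528513, minus strand) on an En-Spm element had 160, 105 and 125 normalized reads in *ddcc*, against 3.14, 0.869 and 3.26 in Col-0. The annotation places a non-coding RNA, AT2G00600, over 1190 bases of it on the other strand, and without strand information reads of the 2 cannot be told apart. AT4G10980 (chr4:6723801-6724685, plus strand), a short Copia member, had 29.98, 36.3 and 44.2 in *ddcc* and 0 reads in Col-0. AT3G26486 (chr3:9697583-9697898, plus strand), with 316 bases the shortest member, had 13.2, 18.6 and 12.2 against 0, 0.869 and 0. AT5G28440 (chr5:10367671-10368317, minus strand) on a Gypsy element had the narrowest gap of the 12, with 10.8, 15.7 and 12.2 in *ddcc* and 0, 5.22 and 0.815 in Col-0, a ratio of 6.21 with an interval of 2.73 to 16.5.

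**Figure D2:**
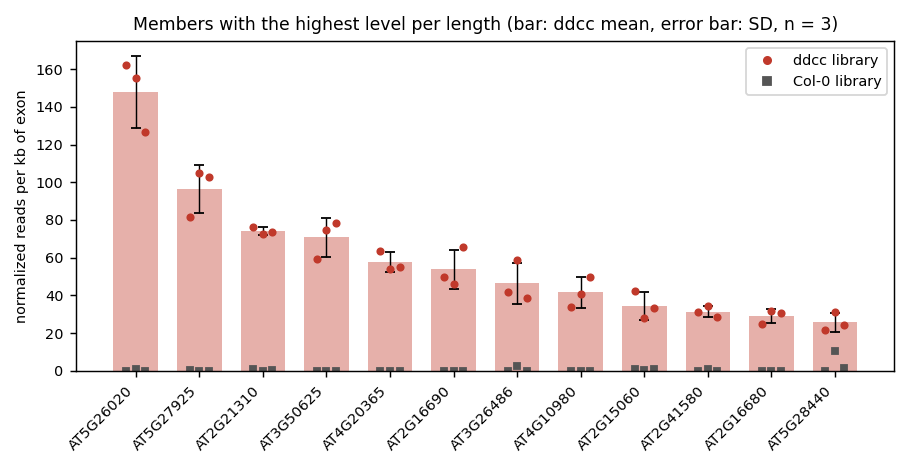
Normalized reads per kb of exon (vertical axis) in the 12 members with the highest mean in *ddcc*; bars give the *ddcc* mean, error bars the SD over 3 libraries, circles single *ddcc* libraries and squares single Col-0 libraries. The bars fall from 148 for AT5G26020 to 25.9 for AT5G28440, and Col-0 is near 0 except for 1 library of AT5G28440.

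Spread between the *ddcc* libraries was moderate. The SD of the 3 log2 values had a median of 0.276 over the members, beside 0.201 over the 14445 other identifiers in the same range of mean level. The widest gaps between the highest and lowest library were 1.38 on the log2 scale for AT1G34090 (Copia), 1.35 for AT1G42110 (hAT), 1.24 for AT3G43864 (Gypsy), 1.21 for AT3G23725 (Gypsy) and 1.20 for AT1G70010 (Copia). Replicate 2 was the highest library in the first 3 of these, replicate 1 in AT3G23725 and replicate 3 in AT1G70010. AT1G34090 had 50.4, 67.6 and 25.4 normalized reads in *ddcc* and no Col-0 read. By length, the annotated exons ran from 316 to 6794 bases with a median of 4281, and the longest were AT3G57586 (6794 bases, LINE), AT2G11340 (5802, Gypsy) and AT5G07215 (5488, unassigned).

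Several members sat close to a limit. Just above the *ddcc* limit of 3 were AT1G36305 and AT5G25205 with a lowest log2 value of 3.03, AT3G43864 with 3.13, AT5G26236 with 3.41 and AT4G08138 with 3.43. Those that fell just short were AT3G42766 with 2.93, AT2G10520 and AT3G32925 with 2.81, and AT1G36120 and AT5G35207 with 2.78. Nearest inside the Col-0 limit were AT3G57586 with a mean of 1.81, AT2G15060 with 1.68, AT3G13270 and AT5G28440 with 1.19 and 1.17, and AT5G07215 with 0.98. Nearest outside were AT2G13431 with 2.08, AT3G48523 with 2.13, AT5G18633 with 2.18, AT4G28900 with 2.29 and AT4G07850 with 2.52. On the *met1-3* side AT2G16680 and AT5G27902 had a lowest value of 2.98 and AT2G13460, AT3G29792 and AT2G41580 of 2.96, while AT1G32830 and AT2G15815 with 3.19, AT2G41570 with 3.28, and AT1G35735 and AT4G04560 with 3.39 counted as on in both mutants. The border with the TE genes on in both mutants therefore runs through closely spaced values.

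Low in *met1-3* did not mean empty. Each of the 33 listed members had at least 1 read in at least 1 *met1-3* library, 20 had reads in all 3 and 13 had 0 reads in at least 1. The highest of the 3 values was over 3 in 11 members and at most 3 in 22. The *ddcc* and *met1-3* values overlapped in AT1G42110, AT3G29792 and AT5G27902, with the 2 tables scaled apart. In the other listed members they did not overlap, which the rule makes likely and from which nothing is read. AT5G27902, a MuDR element, had 13.04, 17.7 and 6.87 normalized reads in *met1-3* and 11.99, 9.80 and 15.5 in *ddcc*. AT3G29792, a Copia element, had 7.61, 6.80 and 18.04 in *met1-3* and 19.2, 12.7 and 16.6 in *ddcc*. For these the label of a gene off in *met1-3* rests on 1 or 2 libraries.

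The superfamily of the underlying element, a property the rule did not use, was taken from the study's TE list for 49 members. The element with the largest overlap was used, whatever its size, and it covered at least 50% of the gene in 45 of the 49. Among those covered less were AT2G11340 (44.5%), AT5G27902 (33.7%) and AT3G29078 (30.5%), so their labels rest on a smaller part of the gene. Copia elements underlay 18, Gypsy elements 13 and LINE/L1 elements 10, so retrotransposons made up 41 of 49 (83.7%). The other 8 were 3 MuDR, 2 hAT, 1 En-Spm, 1 Helitron and 1 unassigned element. The retrotransposon share was 57.7% (41 of 71) in TE genes on in both mutants, 45.6% (295 of 647) in those on only in *met1-3* and 53.9% (789 of 1463) in all annotated TE genes. Copia elements made up 36.7% of the members, 28.2% of TE genes on in both and 2.01% of those on only in *met1-3*. Gypsy elements made up 26.5%, 16.9% and 39.4%, and MuDR elements 6.12%, 21.1% and 26.0%. These shares were not tested. That list was compiled from elements expressed in the study's plants, and the paper's title for it names upregulated TEs that gained active marks in the mutants. The shares, also those over all annotated TE genes, therefore rest on elements chosen by expression. They leave out 301 of the 1764.

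**Figure D3:**
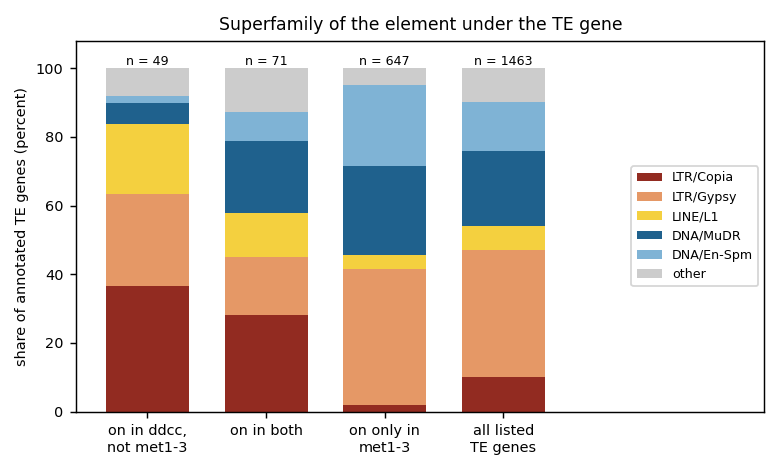
Share of annotated TE genes by superfamily of the underlying element (vertical axis, percent) in 4 sets: the members, TE genes on in both mutants, TE genes on only in *met1-3*, and all listed TE genes. Copia (dark red) takes 36.7% of the members and 2.01% of TE genes on only in *met1-3*.

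By level, Copia members held 55.2% of the summed *ddcc* level, LINE members 17.6% and Gypsy members 10.4%. The median per kb of exon was 13.9 ± 0.962 normalized reads for Copia (SD over 3 libraries), 14.5 ± 0.491 for LINE and 5.55 ± 1.25 for Gypsy. Copia and LINE did not differ beyond their spread between libraries, and Gypsy was lower than both in every library. This spread leaves out that among members, which ran from 3.59 to 96.3 in Copia, 4.70 to 53.9 in LINE and 2.51 to 25.9 in Gypsy. Of the Gypsy members, 8 are close copies of each other, and reads that fit several copies may be missing from their level.

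Direct repeats flanked 17 of 18 Copia, 10 of 13 Gypsy and 2 of 3 MuDR members, 1 of 4 members without an annotated element and none of the LINE members. The share over all members was 56.6%, beside 35.2% in TE genes on in both mutants, 12.7% in those on only in *met1-3* and 20.2% in all listed TE genes. Identity between the repeats had a median of 97.3%, against 96.3%, 94.1% and 95.6% in these sets. It was 100% in AT1G53810 and AT3G50625. The 2 repeats of an LTR element are identical when it inserts and drift apart afterwards. A tRNA site matched in 13 Copia and 7 Gypsy members, in all 20 of 30 (66.7%) members with repeats. This was 17 of 25 (68.0%) in TE genes on in both mutants, 10 of 84 (11.9%) in those on only in *met1-3* and 130 of 357 (36.4%) in all TE genes with repeats. The tRNA-Met site TGGTATCAGAGC alone was at the repeat end in 120 of the 357.

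Open reading frames were longer in the members than in the other sets, but so were the gene bodies. A frame, here and above, is a run of codons without a stop on the gene's strand, with no start codon required. The longest frame had a median of 532 codons, against 418 in TE genes on in both mutants, 251 in those on only in *met1-3* and 271.5 in all. Median body lengths were 4281, 3640, 2372 and 2551.5 bases. By superfamily the median frame was 914.5 codons in Copia, 791.5 in LINE and 513 in Gypsy members. In all listed TE genes of these kinds it was 588, 487 and 289. The part of length and of the superfamily mix was not tested. A frame of at least 1000 codons was present in 9 of 53 members (17.0%), and in 11.3%, 2.12% and 4.54% of the other sets in the order above. AT1G53810 (Copia, chr1:20085584-20090152, plus strand) had the longest, at 1522 codons. It had 137, 68.6 and 127 normalized reads in *ddcc* and no read in Col-0, at least 40.5-fold higher against the floor of 3 reads per library, and 97.6% of its 150-base windows were found once in the genome.

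CG sites were scarce in the annotated bodies of the members. The observed over expected CG ratio, the number of CG pairs times the length over the product of the C and G counts, had a median of 0.402 (quartiles 0.348 and 0.603). It was 0.514 in TE genes on in both mutants, 0.637 in those on only in *met1-3* and 0.631 in all. CHG sites took a median of 18.5% of the cytosines in members, beside 16.3%, 15.6% and 15.7%. The order of the CG ratio held within Copia elements, with medians of 0.348, 0.419 and 0.587 for members, TE genes on in both and those on only in *met1-3*, and within LINE elements, with 0.373, 0.458 and 0.562. It did not hold within Gypsy elements, where the medians were 0.646, 0.674 and 0.645. In the first repeats, the medians were 0.734 over 30 members, 0.907 over 25 TE genes on in both mutants, 0.701 over 84 on only in *met1-3* and 0.697 over all 357 with repeats. None of these differences was tested, and related copies share their composition.

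**Figure D4:**
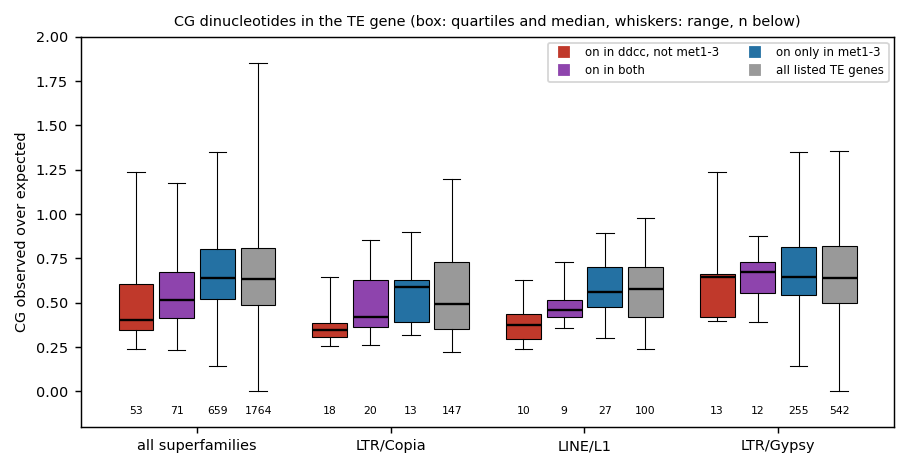
Observed over expected CG ratio of the TE gene body (vertical axis) for the members, TE genes on in both mutants, TE genes on only in *met1-3* and all listed TE genes, over all superfamilies and within 3 of them; boxes give the median and quartiles, whiskers the range and the numbers below the count. Medians of the members are the lowest over all superfamilies (0.402), in Copia (0.348) and in LINE (0.373), and lie among the others in Gypsy (0.646).

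Members lay in regions with many genes. Within 250 kb of a member there was a median of 103 protein-coding genes (quartiles 46 and 129), against 99 for TE genes on in both mutants, 29 for those on only in *met1-3* and 36 for all. By superfamily the median was 115.5 for Copia, 112 for LINE and 42 for Gypsy members. Over all listed TE genes of these kinds the quartiles were 56 and 127 for Copia, 45.75 and 120 for LINE, and 9 and 34 for Gypsy. The medians of Copia and LINE members thus lay within the quartiles of their own kind, and that of Gypsy members lay above them. The part of the superfamily mix in the contrast between the sets was not tested. AT1G42110 had the lowest number, 12, and AT1G16660 the highest, 161.

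**Figure D5:**
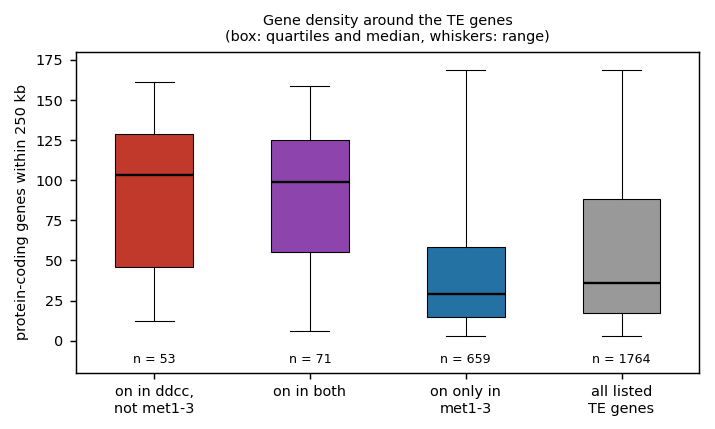
Protein-coding genes within 250 kb of each TE gene (vertical axis) in the same 4 sets; boxes give the median and quartiles and whiskers the range. Medians are 103 for the members, 99 for TE genes on in both mutants, 29 for those on only in *met1-3* and 36 for all listed TE genes.

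Members were related to each other to different degrees. By shared sequence over at least 50% of the shorter gene, with no minimum identity, 31 fell into 8 groups and 22 into none. The larger groups held 8 Gypsy members, 7 members on LINE or unannotated elements and 6 Copia members. Aligned pairs were 66.5% to 90.8% identical in the LINE group, with a median of 71.1%, and 63.8% to 72.8% in the Copia group, so these are distant relatives and the Gypsy group alone of the 3 holds close copies throughout. The 8 Gypsy copies were AT1G36305, AT2G04670, AT2G11430, AT2G13830, AT3G29076, AT4G08138, AT5G26236 and AT5G28715, with 91.8% to 97.3% identity over their 28 pairs. Their CG ratio was 0.610 to 0.681, and without them the median of the members was 0.388. They held 7.06% of the summed *ddcc* level. AT5G28715 (chr5:10765648-10770477, plus strand) had 73.2, 56.8 and 63.0 normalized reads in *ddcc* and none in Col-0, and AT3G29076 (chr3:11056624-11061530, minus strand) had 72.0, 52.9 and 65.2 against 0, 1.74 and 0. These 2 led the group and did not differ beyond their spread in *ddcc*. AT4G08138 (chr4:5129185-5133659, minus strand) was at the low end, with 11.99, 9.80 and 13.3 against 0, 0.869 and 0.

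The family was not on as a whole. Among 36 other annotated pseudogene loci with at least 2000 aligned bases and 90% identity to AT5G28715, 7 were members, 1 (AT2G13860) was on in both mutants, 13 were listed but met neither rule and 15 were not listed. AT2G13860 had log2 values of 6.28 to 7.41 in *ddcc* and 4.44 to 5.13 in *met1-3*. AT4G10580 was kept out by its Col-0 mean, with log2 values of 2.05 to 3.14 in Col-0 and 6.37 to 6.69 in *ddcc*. Reads with a mapping quality under 30 had been removed, so reads that fit several copies may be missing. Every 150-base window was unique in the genome for 30 members, at least 90% of windows were for 42, and 11 were below 90%, among them AT5G28715 (81.2%), AT1G62460 (41.2%) and AT3G30450 (49.5%). Levels of these 11 are uncertain.

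Members mostly stood alone. Apart from the LINE pair above, only AT3G29076 and AT3G29078 lay within 5 kb of each other, 4112 bases apart, and they are of different kinds, Gypsy and LINE. AT3G57586 overlaps a protein-coding gene, AT3G57587, over 1095 bases on the same strand, and its reads may be shared with it.

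Genes beside the members were not used by the rule. Of 33 listed genes without the suffix within 2 kb of a member, 22 were tested and 3 (13.6%) were called, 2 higher and 1 lower, where 5.06% of all tested identifiers were called. The 2 called higher had 1 and 2 reads in all of Col-0 and passed the filter on low values only through *ddcc*, as the members did, so their values are a description and nothing is read from this share. AT2G16676 (chr2:7230346-7232223) lies 69 bases from the LINE member AT2G16680 and had 25.2, 36.3 and 15.5 normalized reads in *ddcc* and 0, 0.869 and 0 in Col-0. Its log2 difference was 4.36 (SE 0.53), on a scale with 1 added to each value, and the ratio of the reads was 86.9 with an interval of 15.1 to 3480. AT2G41590 (chr2:17343360-17345005) lies 272 bases from the LINE member AT2G41580 and had 26.4, 25.5 and 33.2 in *ddcc* against 1.05, 0.869 and 0, a log2 difference of 4.22 (SE 0.46) and a ratio of the reads of 47.1 with an interval of 12.6 to 396. Both were also low in *met1-3*, at 0 to 6.52 and 0 to 4.35 normalized reads. BBX18 (AT2G21320, chr2:9126263-9127987), a B-box zinc finger protein, lies 1051 bases from the Copia member AT2G21310 and fell, with 54.0, 55.8 and 49.8 in *ddcc* and 127, 159 and 145 in Col-0 (log2 difference -1.41, SE 0.15, limma adjusted p = 0.000175). In each of these genes the *ddcc* and Col-0 libraries did not overlap, as for 40.6% of all tested identifiers. All of them lie on the strand of their member and beyond its 3′ end. Whether reads there come from transcripts that start in the member was not tested. The other 19 tested neighbours had log2 differences between -0.91 and 0.63, with a median of -0.19. Among the untested neighbours, AT2G02103 and AT2G13450 had 0 reads in Col-0 and 9 to 11 and 9 to 14 reads per *ddcc* library. They lie beyond the 3′ ends of the LINE members AT2G02110 and AT2G13460, on the same strand. Both were called with no filter, the only untested neighbours that were, and nothing is read from this.

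Of 17 genes of the DNA methylation and H3K9me2 pathway, which were the 5 DNA methyltransferases, SUVH4, SUVH5 and SUVH6 (H3K9 methyltransferases), IBM1 (an H3K9 demethylase), DDM1, MOM1, NRPD1, NRPE1, RDR2, DCL3, AGO4 and ROS1, 15 were tested, 1 was called lower and 0 higher. That share of 6.67% is near the 5.06% called over all tested identifiers and is no result about the list. The one that fell was ROS1 (AT2G36490), a DNA glycosylase that removes methylated cytosine, from 391 normalized reads in Col-0 (335 to 431) to 37.5 in *ddcc* (12.7 to 58.8), with a log2 difference of -3.58 (SE 0.43, limma adjusted p = 0.000417). In *met1-3* it had 0 to 12.02. MET1 had a mean of 51.0 in Col-0 and of 86.1 in *ddcc* and did not pass (log2 difference 0.72, limma adjusted p = 0.0447), and DDM1, a chromatin remodeller needed to silence TEs, had 6.36 and 17.5 (1.29, limma adjusted p = 0.0888).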

How the data were processed

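RNA-seq of 12 samples was deposited, 3 per labelled group. Per the study's methods the authors trimmed reads with Fastp (the submitters' processing notes name Trimmomatic), mapped them to TAIR10 with HISAT2, kept mapping qualities of at least 30 and ran HTSeq-count for the counts per gene. Versions and the strand setting are not given in the sources used here. The authors divided each count by a size factor, added 1 and deposited the log2 of the result, and 100% of them returned whole reads once the log was undone (largest deviation 8.2e-08). The 3 files labelled *met1-3* mature leaves hold the reads of Col-0 at all 22607 shared identifiers and were left out.

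Col-0 and *ddcc* were compared with limma 3.58.1 (R 4.3.3, eBayes with trend) on the log2 values of 17005 identifiers with the equivalent of at least 10 reads in 3 libraries and at least 15 reads in all. In a simulation of this comparison over 17005 genes, 200 of 200 genes changed by a log2 fold of 2 were called, with 1 false call. The changed genes were drawn from those with more reads, and all genes were given the same dispersion. The simulation therefore says nothing about genes with few reads, such as the members, or with a wide spread. No label says that replicates came from separate plants, so p-values measure only the spread between these samples. Floors of 3 reads and intervals cover counting error only. Positions, exons and sequences came from the RefSeq annotation of TAIR10.1, whose nuclear chromosomes are those of TAIR10, and element superfamilies from the study's TE list. Repeats and copies were found with BLAST 2.17.0. Tables and figures were made with Python 3.11.15, pandas 2.3.3 and matplotlib 3.10.9.

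The members and lists were chosen with earlier results of these data known. Named members were the 12 highest in *ddcc* per kb, the 5 with the widest *ddcc* gap, the 3 longest and 3 shortest, the 5 nearest each side of each limit, members within 5 kb of another, and members with 0 reads in all Col-0 and *met1-3* libraries (no listed member met this). AT1G53810, AT1G16660, AT1G62460, AT3G30450, the copies of AT5G28715 and the 3 members whose *met1-3* values overlap were named after their values were seen. Genes outside the set were named where they lay within 2 kb of a member and were called, in the main fit or with no filter, or belonged to the fixed lists. Alternatives were other limits, scaling by total counts, no filter, a pseudocount of 0.1, limma-voom on recovered reads, a replicate block, windows of 1 and 5 kb and each library left out.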

Additional observations from a re-analysis of the deposited data

How the results depend on the processing

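The number of members was 53, and 37 to 60 under every alternative except a *ddcc* limit of 2, which gave 80 and kept all 53. Leaving out 1 library gave 49 to 60. The call count of 861 was 554 to 958 with 1 library left out, lowest without *ddcc* replicate 2, and 825 to 1227 under the other settings. The count of 3 neighbours was 3 to 5 with 1 library left out (5 without Col-0 replicate 3), 2 within 1 kb, 5 within 5 kb, 5 with no filter and 5 with total counts as scaling. The pathway count of 1 became 2 with total counts and with the replicate block, DRM2 being added. Libraries with the same replicate number had correlations of their deviations of 0.213, 0.000849 and 0.0351, beside -0.193 to 0.173 for different numbers. With so few libraries this cannot decide whether replicate numbers pair the samples. The replicate block gave 1017 calls. The same 3 neighbours and ROS1 were called under each fit, with limma adjusted p-values of 3.25e-05 to 0.00208 for BBX18. The summed ratio of 161 was 137 to 199 with 1 library left out and 129 as a share of all reads. The retrotransposon share was 84.4% where the element covered at least 50% of the member. Depth limits the lowest members, of which the least covered had 29 *ddcc* reads in total.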
